A study of Mus musculus with 6 samples.

Results

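The transcripts of 10 enzymes that break glucose down to pyruvate and turn pyruvate into lactate were followed through the gastrocnemius, a calf muscle made mostly of fast fibers, of mice that lacked or overexpressed the transcription factor IRF4 in skeletal muscle. The genes were picked by symbol from the gene-level count table, and all 10 of them were found among its 24054 genes: Hk1, Hk2, Gpi1, Pfkm, Aldoa, Pgam2, Eno3, Pkm, Ldha and Ldhb. RNA-seq had been run on 3 libraries from MI4KO mice (Irf4 flox/flox; Myl1-Cre+) and 3 from MI4OE mice (Rosa26-LSL-IRF4 with Myl1-Cre), all male C57BL/6. Both genotypes carried the skeletal-muscle Cre driver, knocked into the Myl1 locus, and no flox or wild-type gastrocnemius was analysed here, so every difference is one between loss and excess of IRF4. The labels give a high fat diet for every library, whereas the study describes chow-fed mice, which leaves the diet in doubt, and the age of these animals was not stated. Nothing states that each library came from its own animal, so the p-values measure the spread between libraries.

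Glycolysis turns glucose into pyruvate in the cytosol and yields ATP without oxygen. Fast muscle fibers depend on it during intense work and express muscle-specific forms of several of its enzymes. Lactate dehydrogenase then reduces pyruvate to lactate and restores the NAD+ that glycolysis uses. It is a tetramer of A and B subunits, encoded by Ldha and Ldhb: the A subunit predominates in fast glycolytic muscle, and the B subunit in heart and slow oxidative fibers.

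Expected counts summed to between 18828605 (MI4OE replicate 1) and 29239585 per library, and 12660 genes passed the filter on low counts, among them all 10 enzymes. For Irf4 itself the expected counts were 6, 0 and 2 in MI4KO and 2864, 10557 and 5911 in MI4OE (edgeR quasi-likelihood test, Benjamini-Hochberg adjusted p = 0.0055), in the direction of the labels. Skeletal muscle identity was clear in every library, with 7 defining muscle genes (among them Acta1 and Ckm) summing to between 121964 and 150125 TPM, the length-adjusted abundance estimated by RSEM. MI4OE replicate 1 stood apart: its 10 most abundant genes took 25.5% of counts, against 32.8% to 36.8% in the other 5 libraries, and its summed slow-fiber transcripts reached 10636 TPM, against 28.0 to 1042 TPM in the others.

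Of the 10 enzymes, Hk1 was 1.70-fold higher in MI4OE, Ldhb was scattered within both genotypes, and the other 8 had fitted values between -0.37 and -0.03 on the log2 scale. None of the 10 enzymes differed between the genotypes at an adjusted p under 0.05 in edgeR's quasi-likelihood test, against 0.0237% (3) of all genes tested. Also by DESeq2, by the exact test of edgeR and by limma none of them did. Among all genes 111 did by DESeq2, 108 by the exact test, and 4 or 5 by limma on log2(TPM + 1) or log2(TPM + 0.1). Of the 10 enzymes, 1 had an unadjusted p under 0.05 in the quasi-likelihood test, beside 7.58% (959) of all genes tested. By the study's looser criterion of a 1.5-fold difference and an unadjusted p under 0.05, Hk1 was the single enzyme called, higher in MI4OE, beside 6.64% (841) of all genes tested. The log2 fold change of MI4OE relative to MI4KO was below 0 for 8 of the 10, against 50% of all genes tested, with a median of -0.21 (all genes, -4.35e-05). The exceptions were Hk1 and Ldhb. When libraries were scaled by total counts, 6 of the 10 were below 0, with a median of -0.11, and the median of all genes moved to 0.09. The median over the 10 was -0.08 without MI4KO replicate 1, -0.30 without MI4KO replicate 2, and -0.07 without both replicates 1, a choice made after the data were seen. MI4KO replicate 1 held the highest CPM (library-size scaled counts, with TMM factors) of 6 of the enzymes, and MI4OE replicate 1 held the highest of the other 4 and the lowest of 5. In bulk muscle, fewer cells of a type and less RNA per cell cannot be told apart.

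**Figure D1:**
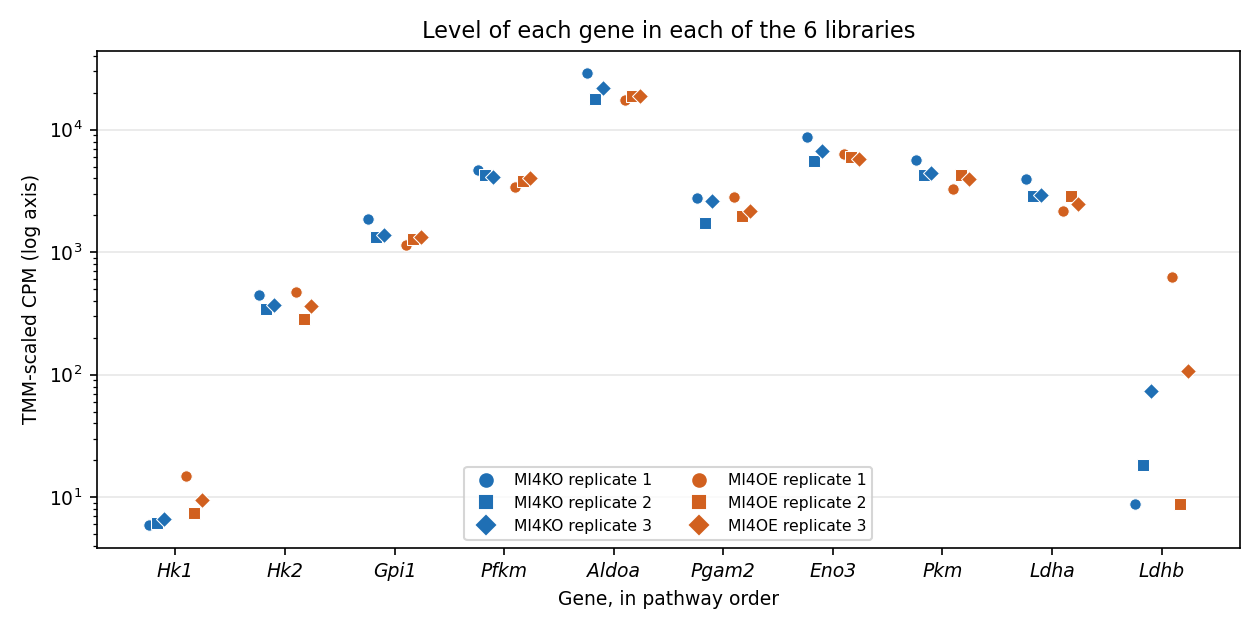
TMM-scaled CPM of each enzyme gene (log axis) in every library, with genotype shown by color and replicate by symbol. Ldhb spread over a 71.9-fold range, and no other gene spread over more than the 2.55-fold range of Hk1.

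On a per-length scale the enzymes differed in abundance by several orders of magnitude. Aldoa had the highest mean, 23746 TPM over the 6 libraries, and ranked 9 among all genes, followed by Eno3 at 7334 TPM (rank 16) and Pgam2 at 4651 TPM (rank 21). Ldha (3004 TPM), Pkm (2933 TPM) and Pfkm (2353 TPM) formed a middle group whose ranges over the libraries overlapped, with ranks of 31, 33 and 37. Gpi1 reached 789 TPM, a mean above that of Ldhb although their ranges (602 to 877 TPM and 9.85 to 789 TPM) overlapped. Ldhb averaged 182 TPM and Hk2 110 TPM, an order that reversed in 4 of the 6 libraries, and Hk1 was lowest at 3.28 TPM with a rank of 7823. Together the 10 genes took 5.03%, 4.55% and 4.74% of all TPM in the MI4KO libraries and 3.85%, 4.52% and 4.38% in the MI4OE libraries, without overlap. Their share of expected counts did overlap, at 4.91%, 3.93% and 4.55% in MI4KO and 4.08%, 3.92% and 3.9998% in MI4OE.

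Hexokinases carry out the first step, the phosphorylation of glucose, with Hk2 as the insulin-responsive form of muscle and Hk1 as the form found in nearly every tissue. Hk1 stood at 5.90, 6.14 and 6.58 CPM in MI4KO replicates 1, 2 and 3 and at 15, 7.38 and 9.41 CPM in MI4OE replicates 1, 2 and 3. Every MI4OE library was above every MI4KO library, on the TPM scale too. The difference was 1.70-fold (log2 fold change 0.77, SE 0.27, 95% interval 0.14 to 1.40, unadjusted p = 0.0229 and adjusted p = 0.565 in edgeR's quasi-likelihood test), and rested on 144 to 305 counts per library. Leaving out MI4OE replicate 1, the highest, gave a log2 fold change of 0.43 and no call, and the call was also lost without MI4KO replicate 1 (0.73, unadjusted p = 0.0674 in the same edgeR test) or MI4KO replicate 2 (0.75, unadjusted p = 0.0559).

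Summed markers of endothelium, fibroblasts and red cells, but not of every other cell type, were higher in the MI4OE libraries, as Hk1 was. The summed level of 8 endothelial markers was 46.6, 96.9 and 91.3 TPM in MI4KO and 177, 110 and 121 TPM in MI4OE, with 8 of 8 genes higher in MI4OE, 5 of them by the 1.5-fold criterion (2 without MI4OE replicate 1). For 8 fibroblast markers the sums were 157, 154 and 233 TPM in MI4KO against 303, 257 and 340 TPM in MI4OE, with 7 of 8 genes higher, all 7 by that criterion (4 without MI4OE replicate 1). Red cell transcripts summed to 504, 455 and 584 TPM in MI4KO and to 1521, 619 and 750 TPM in MI4OE, with 3 of 3 genes tested higher and 1 by that criterion, also without MI4OE replicate 1. Hba-a2 and Hbb-bs were listed at 0 in every library, so that sum rests mainly on Hba-a1 (mean 709 TPM), which overlapped in CPM (161, 106 and 159 in MI4KO, 436, 151 and 190 in MI4OE) and whose log2 fold change was 0.87 with and 0.26 without MI4OE replicate 1. Schwann cell markers overlapped, at 23.4, 124 and 24.4 TPM in MI4KO and 77.7, 215 and 71.4 TPM in MI4OE, with 7 of 7 genes higher, also without MI4OE replicate 1, and none by that criterion. Endothelial, fibroblast and red cell sums did not overlap between the genotypes. Macrophage markers summed to 52.2, 56.3 and 97.1 TPM in MI4KO and 76.8, 38.3 and 71.6 TPM in MI4OE, with 6 of 8 genes lower in MI4OE. Hepatocyte markers summed to 1.48, 5.11 and 65.4 TPM in MI4KO and 3.04, 0.40 and 0.17 TPM in MI4OE, an overlapping pair of groups in which MI4KO replicate 3 stood out, and 2 of the 6 listed genes could be tested. Adipocyte markers were lower in MI4OE, with 9 of 9 genes. The part of any of these cells in the Hk1 difference was not tested.

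Hk2 had 449, 341 and 367 CPM in MI4KO and 470, 287 and 361 CPM in MI4OE. The MI4OE libraries included both the highest and the lowest value, and the groups overlapped throughout. Its log2 fold change was -0.05 (SE 0.23, 95% interval -0.59 to 0.49, edgeR adjusted p = 0.977), and the sign turned positive, 0.06, when libraries were scaled by total counts.

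The Hk1 to Hk2 ratio separated the genotypes as Hk1 did. Within each library, Hk1 TPM over Hk2 TPM was 0.0175, 0.0241 and 0.0241 in MI4KO and 0.0426, 0.0343 and 0.0348 in MI4OE. All 3 MI4OE ratios exceeded all 3 MI4KO ratios. The geometric means were 0.0217 and 0.0371, a 1.71-fold difference (log2 difference 0.78, SE 0.18, n = 3 and 3, two-sided exact permutation p = 0.1, the smallest p that 3 libraries against 3 allow). Hk2 transcripts outnumbered Hk1 transcripts by 57.1-fold at the most, in MI4KO replicate 1, and by 23.5-fold at the least, in MI4OE replicate 1. On expected counts, which favor the longer transcript, the ratio was 0.0131, 0.0180 and 0.0179 in MI4KO and 0.0319, 0.0257 and 0.0261 in MI4OE, with the same separation.

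**Figure D2:**
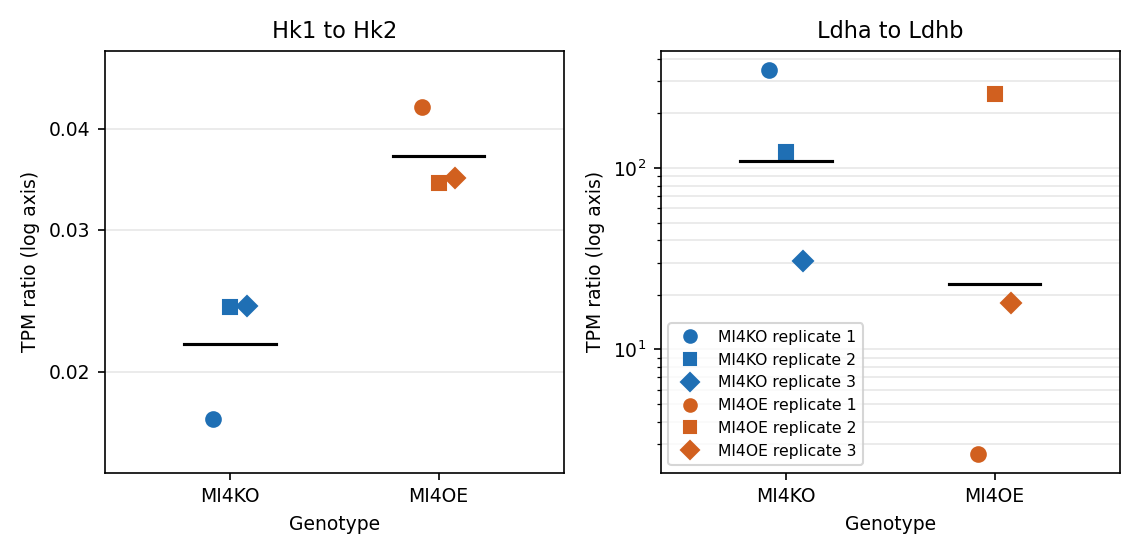
Ratio of Hk1 to Hk2 and of Ldha to Ldhb within each library (TPM ratio, log axes), by genotype, with the geometric mean of 3 libraries as a bar. The Hk1 to Hk2 ratios of the genotypes do not overlap (0.0175 to 0.0241 and 0.0343 to 0.0426), whereas the Ldha to Ldhb ratios do (30.9 to 347 and 2.66 to 256).

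The next steps isomerize glucose phosphate (Gpi1), commit it to glycolysis (Pfkm, the muscle form of phosphofructokinase) and split the sugar into triose phosphates (Aldoa). Gpi1 had 1863, 1338 and 1387 CPM in MI4KO and 1139, 1291 and 1328 CPM in MI4OE. Pfkm had 4660, 4231 and 4118 CPM in MI4KO and 3406, 3815 and 4041 CPM in MI4OE. For both genes every MI4OE library was below every MI4KO library in CPM, but neither separation held in TPM. With Hk1, that made 3 of the 10 enzymes without overlap in CPM, against 12.9% (1628) of all genes tested.

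Neither difference passed the test. Gpi1 had a log2 fold change of -0.29 (SE 0.21, 95% interval -0.78 to 0.20, edgeR adjusted p = 0.819; -0.13 without MI4KO replicate 1) and Pfkm one of -0.21 (SE 0.19, 95% interval -0.66 to 0.24, adjusted p = 0.853). Aldoa, the most abundant of the 10, stood at 28874, 17808 and 22002 CPM in MI4KO, against 17598, 18783 and 18887 CPM in MI4OE. MI4KO replicate 1 was far above the rest, MI4KO replicate 2 lay within the narrow MI4OE range, and the coefficient of variation was 24.4% in MI4KO and 3.89% in MI4OE. The log2 fold change of Aldoa was -0.31 (SE 0.25, 95% interval -0.90 to 0.27, edgeR adjusted p = 0.843), and -0.12 without MI4KO replicate 1.

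Pgam2 and Eno3 encode the muscle forms of phosphoglycerate mutase and enolase, which prepare the phosphate of the triose for transfer to ADP. Pgam2 had 2747, 1745 and 2606 CPM in MI4KO and 2804, 1986 and 2169 CPM in MI4OE. Its extremes were MI4OE replicate 1 and MI4KO replicate 2, and its log2 fold change was -0.03 (SE 0.25, 95% interval -0.62 to 0.56, edgeR adjusted p = 0.992), with a sign that depended on the scaling. Eno3 had 8669, 5584 and 6737 CPM in MI4KO and 6309, 5947 and 5771 CPM in MI4OE. MI4KO replicates 1 and 2 were its highest and lowest libraries, so the MI4OE values lay inside the MI4KO range. The log2 fold change of Eno3 was -0.22 (SE 0.23, 95% interval -0.76 to 0.32, edgeR adjusted p = 0.871), and -0.04 without MI4KO replicate 1.

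Pkm, pyruvate kinase, makes pyruvate and ATP in the last step of the pathway. It stood at 5657, 4240 and 4415 CPM in MI4KO, against 3296, 4277 and 3971 CPM in MI4OE. MI4OE replicate 1 was the lowest and MI4KO replicate 1 the highest, and the groups overlapped through MI4OE replicate 2. The log2 fold change was -0.31 (SE 0.22, 95% interval -0.83 to 0.21, edgeR adjusted p = 0.817), and -0.18 without MI4KO replicate 1.

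Pkm pre-mRNA is spliced with 1 of 2 mutually exclusive exons: the M1 form of adult muscle and brain uses the upstream exon and the M2 form of growing and many other tissues uses the downstream exon. The pair is shown because it decides the isoform seen here. Both lie on the plus strand of chromosome 9 in GRCm38, inside the coding sequence of Pkm, at chr9:59675029-59675195 for NM_001253883 (M1) and chr9:59675568-59675734 for NM_011099 (M2), and each is exon 9 of its transcript in GENCODE M21. Capitals mark the bases at which the exons differ when aligned end to end without gaps.
NM_001253883 exon: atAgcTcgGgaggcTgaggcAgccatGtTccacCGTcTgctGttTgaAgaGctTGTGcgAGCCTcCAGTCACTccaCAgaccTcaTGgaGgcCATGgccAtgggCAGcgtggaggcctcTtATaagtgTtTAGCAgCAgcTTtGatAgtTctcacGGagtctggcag
NM_011099 exon: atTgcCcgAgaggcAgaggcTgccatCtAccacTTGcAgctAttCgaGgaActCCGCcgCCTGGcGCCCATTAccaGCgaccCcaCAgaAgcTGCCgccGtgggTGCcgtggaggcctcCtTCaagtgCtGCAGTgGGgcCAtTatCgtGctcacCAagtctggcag
Both exons are 167 bases long and differ at 64 positions (61.7% identity), so reads inside them can be assigned. RSEM assigned 99.6% of all Pkm counts to NM_001253883. NM_011099 received 0.285%, 0.606% and 0.405% of Pkm counts in MI4KO and 1.13%, 0.199% and 0.319% in MI4OE, with both the highest and the lowest share in the MI4OE group.

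Ldha, the A subunit of lactate dehydrogenase, stood at 3943, 2855 and 2922 CPM in MI4KO, against 2158, 2881 and 2488 CPM in MI4OE. MI4OE replicate 1 was the lowest, and MI4OE replicate 2 lay between MI4KO replicates 2 and 3. The difference was -0.37 on the log2 scale (SE 0.23, 95% interval -0.90 to 0.16, edgeR adjusted p = 0.781). It was -0.21 without MI4KO replicate 1 and -0.48 without MI4OE replicate 2. Pkm and Ldha stayed close to each other on the per-length scale, with Pkm TPM over Ldha TPM at 0.933, 0.965 and 0.982 in MI4KO and 0.993, 0.965 and 1.04 in MI4OE.

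Ldhb, the B subunit, varied more than any other of the 10 enzymes. It had 8.84, 18.2 and 73.6 CPM in MI4KO (216, 460 and 2192 expected counts) and 631, 8.77 and 108 CPM in MI4OE (12819, 251 and 2435 expected counts). MI4OE replicate 1 was far above all other libraries, while MI4OE replicate 2 was the lowest of all 6, so the groups overlapped across the whole MI4KO range. The coefficient of variation was 104% in MI4KO and 134% in MI4OE. The fitted log2 fold change of 2.89 (SE 1.37, 95% interval -0.30 to 6.08, unadjusted p = 0.07, edgeR adjusted p = 0.695) rested on MI4OE replicate 1: without it the estimate was 0.79.

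**Figure D3:**
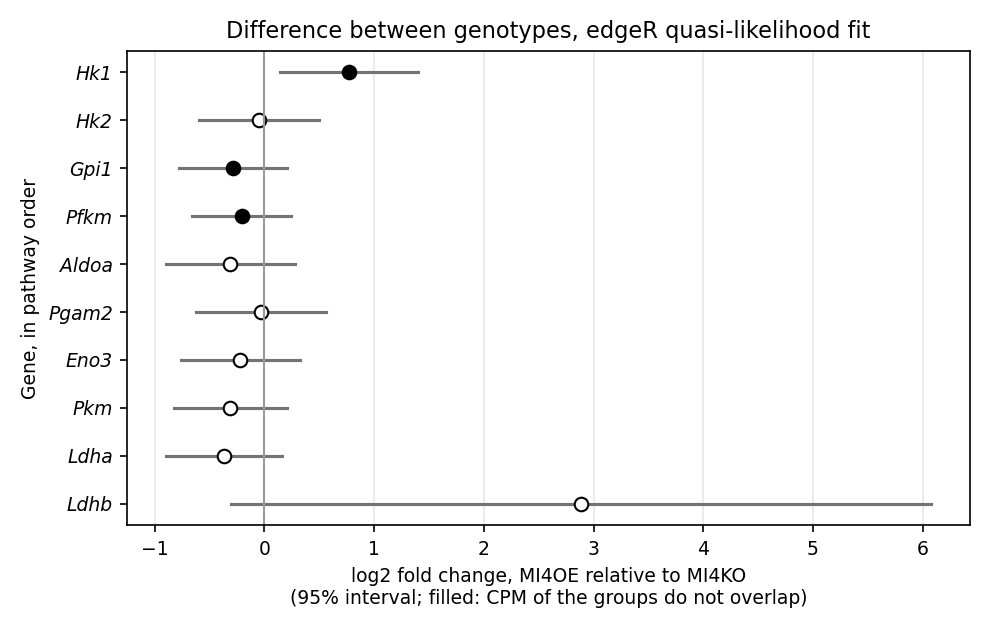
Log2 fold change of each enzyme gene, MI4OE relative to MI4KO, with its 95% interval from the edgeR quasi-likelihood fit. Filled points mark the 3 genes whose CPM did not overlap between genotypes, and the interval of Hk1 (0.14 to 1.40) is the one of the 10 that lies wholly on one side of 0, before any adjustment for the 12660 genes tested.

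The Ldha to Ldhb ratio followed Ldhb. In TPM it was 347, 122 and 30.9 in MI4KO and 2.66, 256 and 18.0 in MI4OE. The A transcript exceeded the B transcript in every library, but by 347-fold in one and 2.66-fold in another. Ldhb made up 0.287%, 0.814% and 3.14% of the pair in MI4KO and 27.3%, 0.390% and 5.26% in MI4OE. The mean log2 ratio was 6.77 ± 1.75 in MI4KO and 4.53 ± 3.31 in MI4OE (SD, n = 3 each; difference -2.25, SE 2.16, two-sided exact permutation p = 0.4). The genotypes were not told apart by this ratio, and without MI4OE replicate 1 the difference was -0.69.

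Slow-fiber transcripts lay in nearly the same order over the libraries as Ldhb. The sum of 11 slow-fiber genes was 28.0, 171 and 189 TPM in MI4KO and 10636, 32.1 and 1042 TPM in MI4OE, with MI4OE replicate 1 the highest in both measures and MI4KO replicate 1 and MI4OE replicate 2 the lowest pair in both. By the 1.5-fold criterion 8 of the 10 slow-fiber genes tested were higher in MI4OE, with none at an adjusted p under 0.05, and without MI4OE replicate 1 none was called, although all 10 stayed above 0. The sum of 13 fast-fiber genes was 290775, 266177 and 260109 TPM in MI4KO and 189609, 266427 and 251835 TPM in MI4OE, and it was lowest where Ldha was lowest. Of these 13 genes 10 were lower and 3 higher in MI4OE, none by the 1.5-fold criterion, and the members Myh1 (10167 CPM) and Myh2 (7421 CPM) were highest in MI4OE replicate 1. The part of fiber makeup in the lactate dehydrogenase values was not tested.

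**Figure D4:**
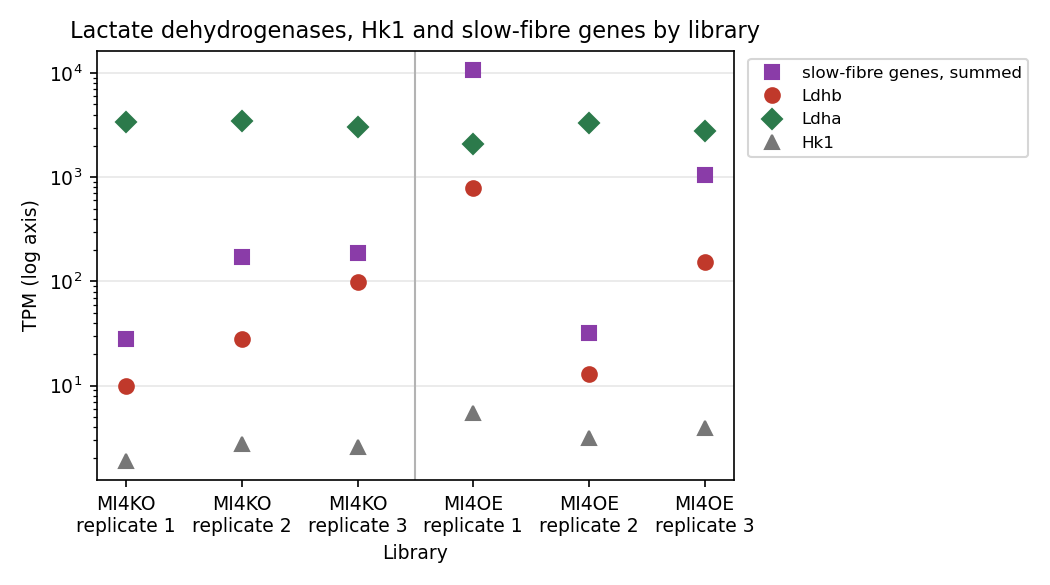
TPM of Ldhb, Ldha and Hk1 and the summed TPM of 11 slow-fiber genes (log axis) in each library, with a line between the genotypes. Ldhb (9.85 to 789 TPM) and the slow-fiber sum (28.0 to 10636 TPM) are both highest in MI4OE replicate 1, whereas Ldha stays between 2100 and 3430 TPM.

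Within their isozyme families the listed muscle forms dominated in every library, with the lactate dehydrogenases as the most variable pair. Pfkm took at least 99.6% of phosphofructokinase TPM, Pgam2 at least 99.4% of phosphoglycerate mutase TPM and Eno3 at least 99.1% of enolase TPM, and Aldoa and Pkm at least 99.99% of theirs. Hk2 took 90.4% to 93.6% of hexokinase TPM. Hk1 took 1.58%, 2.19% and 2.20% of that family in MI4KO and 3.99%, 3.19% and 3.24% in MI4OE, so that its share was higher in every MI4OE library.

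Of the 21 further enzymes and isozymes of the pathway, 11 passed the filter on low counts, 2 higher and 9 lower in MI4OE (median log2 fold change -0.20), and none at an adjusted p under 0.05. Among them were the abundant Gapdh (-0.28, SE 0.26), Tpi1 (-0.09, SE 0.22) and Pgk1 (-0.38, SE 0.23), each with overlapping groups.

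The enzymes that control phosphofructokinase through its activator or bypass the irreversible steps of glycolysis in the reverse direction gave 3 genes higher and 6 lower of 9 tested, 2 of them lower by the 1.5-fold criterion (1 without MI4OE replicate 1, when Pfkfb4 was at -0.55). Pfkfb4, which makes and degrades the activator of that enzyme, had 115, 68.5 and 64.0 CPM in MI4KO and 31.9, 58.8 and 54.0 CPM in MI4OE (log2 fold change -0.77, SE 0.31, edgeR adjusted p = 0.626). Pck1, the phosphoenolpyruvate carboxykinase of gluconeogenic tissues and fat, had 0.901, 35.5 and 40.2 CPM in MI4KO and 0.590, 2.83 and 0.927 CPM in MI4OE (log2 fold change -4.09, SE 1.2, adjusted p = 0.521), with MI4KO replicate 1 among the MI4OE values. All 9 adipocyte markers were lower in MI4OE, 8 by the same criterion, and their sum was 2236, 3374 and 5546 TPM in MI4KO and 2019, 1117 and 1420 TPM in MI4OE. Without Car3, which muscle fibers also express, a choice made after the data were seen, the sums were 433, 1321 and 2683 TPM in MI4KO and 749, 446 and 363 TPM in MI4OE, so that they overlapped. Fabp4 alone held 320, 736 and 1192 TPM of these sums in MI4KO and 731, 344 and 332 TPM in MI4OE. In CPM, Fabp4 and Cfd overlapped between the genotypes. The other 7 of the 9 markers, Car3 among them, were lower in every MI4OE library, against 12.9% (1628) of all genes tested without overlap. The part of adipocytes in the Pck1 difference was not tested.

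Transport of lactate and pyruvate, glucose entry and glycogen handling gave no gene past either criterion. Slc16a3 encodes MCT4, the lactate exporter of glycolytic muscle. It had 799.8, 420 and 463 CPM in MI4KO and 251, 416 and 355 CPM in MI4OE, groups that did not overlap (log2 fold change -0.72, SE 0.31, unadjusted p = 0.051, edgeR adjusted p = 0.661). Without MI4OE replicate 1 Slc16a3 was at -0.54. Its chaperone Bsg was also lower in every MI4OE library (-0.32, SE 0.18). Of the 7 transport genes tested, 2 did not overlap in CPM, against 12.9% (1628) of all genes tested. The mitochondrial pyruvate carrier genes Mpc1 (0.00, SE 0.22) and Mpc2 (0.23, SE 0.36) overlapped. Without MI4OE replicate 1 they were at -0.19 and -0.24, and the transport genes went from 4 higher and 3 lower to 1 higher and 6 lower. Of 8 glycogen and glucose entry genes 7 were lower. Those with a mean of at least 100 TPM ran from Pgm2 (-0.49, SE 0.30) and Pygm, glycogen phosphorylase (-0.43, SE 0.30), to Ugp2 (-0.08, SE 0.19), the glucose transporter Slc2a4 (-0.06, SE 0.19) and Gys1, glycogen synthase (-0.05, SE 0.17). Pgm2 and Pygm were at -0.25 and -0.19 without MI4OE replicate 1, whereas Ugp2, Slc2a4 and Gys1 moved away from 0, to -0.16, -0.16 and -0.08.

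The shuttles that carry cytosolic NADH into mitochondria, and so offer a route to NAD+ other than lactate dehydrogenase, were split. Of 7 genes 4 were higher in MI4OE, none past either criterion, and those 4 were the malate-aspartate enzymes Mdh1 (0.90, SE 0.46), Got1 (0.72, SE 0.38), Got2 (0.46, SE 0.30) and Mdh2 (0.37, SE 0.28) on the log2 scale. Mdh1 had 288, 240 and 369 CPM in MI4KO and 996, 273 and 399 CPM in MI4OE. As with Ldhb, the highest value of each of these 4 genes came from MI4OE replicate 1, and without it their log2 fold changes were 0.17 (Mdh1), 0.23 (Got1), 0.11 (Got2) and 0.06 (Mdh2). Gpd1 of the glycerol phosphate shuttle had 944, 903 and 761 CPM in MI4KO and 404, 890 and 711 CPM in MI4OE, lowest in that library, and its log2 fold change was -0.38 with it and -0.12 without it.

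**Figure D5:**
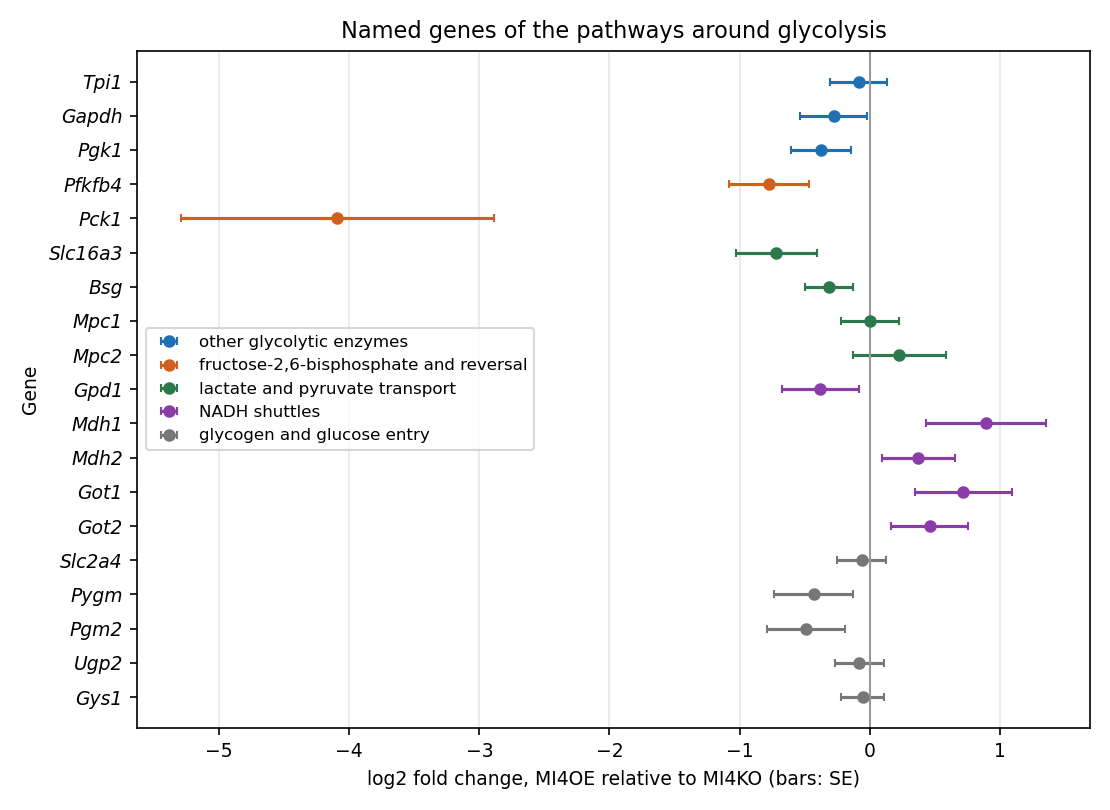
Log2 fold change (MI4OE relative to MI4KO) with its SE for the genes named from the pathways around glycolysis, colored by group. Pfkfb4 (-0.77) and Pck1 (-4.09) met the 1.5-fold criterion, and no gene shown had an adjusted p under 0.05.

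At the transcript level, 4 of the enzymes had a pair of RefSeq transcripts that each held at least 5% of the gene's counts. Eno3 counts went mostly to NM_001136062, at 74.7%, 69.9% and 73.9% in MI4KO and 79.4%, 71.5% and 73.4% in MI4OE. Aldoa counts were split between NM_001177308 (58.1% to 69.9% over the libraries) and NM_007438 (29.7% to 41.5%), and Pfkm counts went mostly to NM_021514 (85.2% to 89.4%). Hk1 counts were assigned wholly to NM_001146100 in 4 libraries, whereas in MI4KO replicate 3 63.9% of them went to NM_010438. The 8 transcript shares compared, which form 4 nearly complementary pairs, overlapped between the genotypes (two-sided exact permutation p between 0.6 and 1), in a design whose smallest p of 0.1 lets no share pass 0.05. RSEM apportions 50-base reads that fit several transcripts, so these shares are estimates.

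The genes whose log2 CPM lay closest to those of the isozymes over the 6 libraries were found by Pearson's correlation among at least 6401 other genes with a mean of at least 10 CPM. For Ldhb these were Myoz2, a Z-disc protein of slow and cardiac muscle (r = 0.999), Adk (r = 0.995) and Ing4 (r = 0.995). Myoz2 had 2.29, 6.85 and 36.0 CPM in MI4KO and 420, 2.38 and 62.6 CPM in MI4OE, highest in MI4OE replicate 1 and lowest in MI4KO replicate 1 and MI4OE replicate 2, as for Ldhb. For Ldha they were Clns1a (r = 0.997), Mier2 (r = 0.996) and Ppp2r2d (r = 0.995), for Hk1 Lamb2, Raver1 and Slco3a1 (r from 0.989 to 0.993), and for Hk2 Idh3a, Denr and Hmgb1 (r from 0.991 to 0.994). With 6 libraries and so many genes searched, these values describe likeness in these libraries and carry no test.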

How the data were processed

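Members and gene lists were chosen with earlier results of these data known. Stranded mRNA libraries, per the labels, were sequenced as short single reads, demultiplexed with bcl2fastq 2.17 and quantified by the authors with Bowtie2 2.1.0 and RSEM 1.2.15 against a UCSC transcript set. The genome build is not given in the sources used here. The deposited expected counts, per gene and per transcript, are RSEM estimates without normalization, and the deposited TPM values are abundances per length from the same run. The authors' table of fold changes, p-values, false discovery rates and TMM-scaled values was not used. Exon sequences came from GENCODE M21 (GRCm38).

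Groups came from the genotype label. Expected counts were rounded, filtered with filterByExpr (minimum count 10, minimum total 15) and scaled by TMM. MI4OE was compared with MI4KO by edgeR 4.0.16 (R 4.3.3) with the quasi-likelihood F test and Benjamini-Hochberg adjustment over 12660 genes, at an adjusted p of 0.05, and by the looser criterion used in the study (a 1.5-fold difference with unadjusted p under 0.05). SE is the log2 fold change over the square root of F. Ratios of TPM and transcript shares were compared by exact permutation. Alternatives used DESeq2 1.42.0, edgeR's exact test, limma 3.58.1 on log2(TPM + 1) or log2(TPM + 0.1), other filters and scalings, and leaving out libraries. From the surrounding pathways, genes were named at a mean of at least 100 TPM or an unadjusted p under 0.05, and for Hk1, Hk2, Ldha and Ldhb the 3 genes most correlated with each. A gene named by this rule is not reported here. Tissue and fiber markers are given as sums. Tigar and Adgre1 were found under older symbols.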

Additional observations from a re-analysis of the deposited data

How the results depend on the processing

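No enzyme reached an adjusted p under 0.05 in any of 16 alternative fits. Enzymes past the 1.5-fold criterion numbered 1, against 2 (Hk1 and Ldhb) with no filter and with edgeR's exact test, 0 with limma on log2(TPM + 1), 0 without both replicates 1 (a choice made after the data were seen), and 0 to 2 on leaving out each library. It was 0 without MI4KO replicate 1, MI4KO replicate 2 or MI4OE replicate 1, and 2 without MI4KO replicate 3 or MI4OE replicate 2. Over the alternatives Hk1 kept its direction, with a log2 fold change of 0.39 to 0.97 and an adjusted p of 0.291 to 1, and so did Ldhb, at 0.34 to 4.18 and 0.318 to 1. The signs of Hk2 and Pgam2 were not stable: Hk2 was at 0.062 and Pgam2 at 0.082 with total counts, Pgam2 was at 0.0472 with limma at either pseudocount, and leaving out libraries gave -0.26 to 0.10 for Hk2 and -0.22 to 0.088 for Pgam2. The log2 difference of the Hk1 to Hk2 ratio stayed between 0.59 and 0.85 and that of the Ldha to Ldhb ratio between -3.98 and -0.69. Differences of transcript shares, in percentage points, on leaving out libraries ran from -4.47 to 1.44 (Aldoa NM_001177308), -1.42 to 4.49 (Aldoa NM_007438), -0.35 to 3.59 (Eno3 NM_001136062), -3.74 to 0.52 (Eno3 NM_007933), -0.47 to 31.5 (Hk1 NM_001146100), -31.5 to 0.47 (Hk1 NM_010438), -2.69 to 0.98 (Pfkm NM_001163487) and -0.91 to 1.18 (Pfkm NM_021514). Across all genes, those at an adjusted p under 0.05 numbered 3, against 111 with DESeq2, 108 with edgeR's exact test, 5 with limma on log2(TPM + 0.1) and 1 to 4 on leaving out libraries (1 without MI4KO replicate 1). Those past the 1.5-fold criterion numbered 841, against 455 with limma on log2(TPM + 1) and 590 to 1314 on leaving out libraries (1314 without MI4OE replicate 2). The cause was not tested. Replicate numbers here follow the order of deposition. No paired analysis was possible because GEO labels carry no number that could pair libraries. Hk1 rested on 144 to 305 counts per library, the fewest of the 10 enzymes in total.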
